A study of Mus musculus with 6 samples.

Results

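The genes described are the 3 classical cadherins Cdh1, Cdh2 and Cdh3, the intermediate filament gene Vim, and 6 transcription factors of epithelial-mesenchymal transition, Snai1, Snai2, Twist1, Twist2, Zeb1 and Zeb2. They were chosen by gene symbol, and all 10 have a row among the 17794 genes of the deposited table. RNA was sequenced from whole mouse corneas after experimental dry eye had been induced in both groups with benzalkonium chloride (BAC), a detergent preservative that injures the ocular surface. The corneas had received luteolin (a plant flavone) or vehicle for 10 days, with 3 libraries of each. Strain, age and dose are not stated. Corneas without damage were not analysed here, and every difference is between damaged, treated tissue and damaged, vehicle-treated tissue. Whole corneas hold epithelium, stroma, endothelium and immigrant cells together.

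Classical cadherins are calcium-dependent adhesion receptors that join neighbouring cells at adherens junctions and bind catenins inside the cell. In epithelial-mesenchymal transition (EMT) epithelial cells give up E-cadherin, encoded by Cdh1, and take up mesenchymal traits such as vimentin filaments, and the zinc finger factors of the Snail and Zeb families and the helix-loop-helix Twist factors are known to repress Cdh1. In the healthy cornea E-cadherin marks the epithelium, N-cadherin (Cdh2) is found in the endothelium, and vimentin is found in keratocytes, endothelium and blood-derived cells.

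Luteolin corneas had more Cdh1 transcript and less Cdh3, Vim, Snai1, Snai2, Zeb1 and Zeb2 transcript than vehicle corneas. Vim differed most, being 7.33-fold lower, followed by Zeb2 at 5.24-fold and Snai1 at 3.93-fold lower. Cdh2, Twist1 and Twist2 did not pass the test, and their libraries overlapped between groups. Of the 10 genes, 7 passed edgeR's quasi-likelihood test at a Benjamini-Hochberg adjusted p under 0.05, 1 higher and 6 lower. Among all 13838 tested genes 58.9% passed, 28.5% higher and 30.4% lower, so passing the test was common in this comparison. The groups did not overlap for the same 7 genes, against 67.4% of all tested genes. The median log2 fold change was -1.09 over the 10 genes and -0.02 over all tested genes. The split of all calls depended on scaling: 51.6% were lower with TMM factors, 61.9% with upper quartile factors and 63.6% when scaled by library size alone. Scaling by library size alone put the median log2 fold change of all genes at -0.13.

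**Figure D1:**
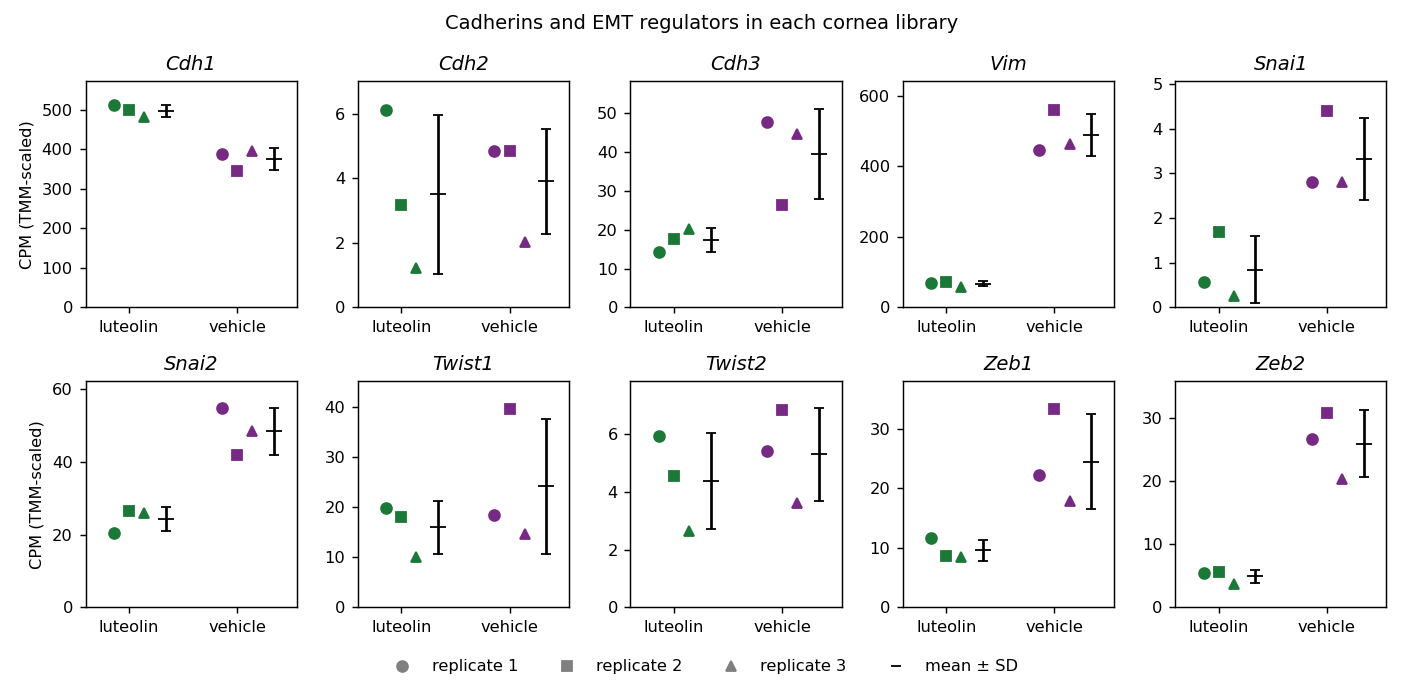
CPM (read counts scaled to a common library total with TMM factors, vertical axes from 0) of the 10 genes in the 3 luteolin and 3 vehicle libraries, with marker shapes for replicate numbers and black bars for the mean and SD. Luteolin libraries lie above all vehicle libraries for Cdh1 and below all of them for Cdh3, Vim, Snai1, Snai2, Zeb1 and Zeb2, while the groups overlap for Cdh2, Twist1 and Twist2.

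Library totals ran from 16084855 to 16469699 estimated counts. Markers of the corneal epithelium were abundant in all 6 libraries: 7 of 8 listed genes had a row, and all 7 were higher with luteolin, with a summed level of 67805 to 70210 TPM (a level scaled by transcript length and library total) against 39503 to 45934 TPM with vehicle. Of 12 markers of macrophages and dendritic cells 11 were lower and Itgam was higher, and the sum was 119 to 140 TPM with luteolin against 331 to 523 TPM with vehicle. Of 10 vessel markers 9 were lower (17.9 to 23.0 TPM against 85.9 to 146 TPM), as were 4 of 5 tested markers of myofibroblasts and pericytes (12.5 to 15.95 TPM against 56.4 to 108 TPM). Among neutrophil genes, S100a8 had 0 counts with luteolin and 77.4 to 204 TPM with vehicle, and S100a9 had 3.56 to 14.7 TPM with luteolin and 56.4 to 117 TPM with vehicle. Ly6g had 0 counts with luteolin and was scarce with vehicle too (0.16 TPM in each library). Of 4 conjunctival epithelium keratins with a row, Krt4 (log2 fold change -1.28), Krt13 (-0.78) and Krt19 (-0.66) were lower and Krt7 did not pass, with a sum of 1910 to 2879 TPM with luteolin and 4373 to 4540 TPM with vehicle. In these bulk samples, fewer cells of a type and less RNA per cell cannot be told apart. Keratocyte markers had 1304 to 2571 TPM with luteolin and 1580 to 5335 TPM with vehicle, and the high value was vehicle 2. Whether each library stands for its own animal is not stated in the labels, and the p-values rest on the spread among these samples alone, which may be technical.

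The E-cadherin gene rose modestly from a high level. Cdh1 (gene ID 12550) had 511, 498 and 480 CPM in luteolin 1, 2 and 3, against 388, 344 and 396 CPM in vehicle 1, 2 and 3. Every luteolin library was above every vehicle library, and the spread within each group was small. The means were 496 ± 15.5 CPM with luteolin and 376 ± 27.8 CPM with vehicle (SD, n = 3 each), a 1.32-fold difference (log2 fold change 0.40, SE 0.0715, edgeR adjusted p = 0.00259). Of all tested genes, 78.5% had a lower log2 fold change than Cdh1. Set beside the epithelial markers it was lower: per 1000 TPM of the 7 summed markers Cdh1 had 2.62, 2.60 and 2.42 TPM with luteolin, against 3.53, 2.67 and 3.03 TPM with vehicle. On that scale the order of the groups was the opposite of the order in CPM. The gap was thin, with luteolin 1 at 2.62 TPM and vehicle 2 at 2.67 TPM. The aldehyde dehydrogenase gene Aldh3a1 gave 34.4% to 37.8% of this marker sum. Krt12 (12115 to 26388 TPM) and Krt5 (10183 to 15244 TPM) also gave large parts of it. The 7 markers did not rise equally, from a log2 fold change of 0.25 for Trp63, less than that of Cdh1, to 0.87 for Krt12.

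P-cadherin, which in stratified epithelia is typical of basal cells, went the other way. Cdh3 (gene ID 12560) had 14.2, 17.6 and 20.3 CPM in luteolin 1, 2 and 3, against 47.8, 26.4 and 44.6 CPM in vehicle 1, 2 and 3. Vehicle 2 was the lowest vehicle library and still above the highest luteolin library. The log2 fold change was -1.19 (SE 0.235, edgeR adjusted p = 0.00408), a 2.28-fold lower level. The conjunctival keratins named above were lower too, and their part in the difference of Cdh3 was not tested. Cdh1 and Cdh3 moved in opposite directions, and the 95% intervals of their log2 fold changes, 0.23 to 0.57 for Cdh1 and -1.74 to -0.64 for Cdh3, lay on opposite sides of 0.

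N-cadherin transcript was scarce and did not differ detectably. Cdh2 (gene ID 12558) had 95, 49 and 19 counts in luteolin 1, 2 and 3, against 83, 83 and 34 counts in vehicle 1, 2 and 3. The third library was the lowest in each group, and the groups overlapped almost fully. The log2 fold change was -0.16 with a 95% interval of -1.48 to 1.17 (edgeR adjusted p = 0.827), so a change of up to about that size in either direction was not detectable. Markers of the corneal endothelium, the single cell layer that lines the back of the cornea, ran alongside it: their sum was 204, 138 and 64.3 TPM in luteolin 1, 2 and 3, against 162, 160 and 56.9 TPM in vehicle 1, 2 and 3. Per 1000 TPM of these 7 markers Cdh2 had 6.07 to 9.82 TPM with luteolin and 9.73 to 11.3 TPM with vehicle. Of the 7 endothelial markers 1, Tfap2b, was lower and 6 did not pass. The part of endothelial content in the values of Cdh2 was not tested.

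On the length-scaled TPM measure, which allows genes to be compared with each other, E-cadherin dominated the 3 cadherins. Cdh1 made up 96.0%, 95.7% and 95.3% of their summed TPM in luteolin 1, 2 and 3, against 87.1%, 91.1% and 88.5% in vehicle 1, 2 and 3. Cdh3 made up 2.96% to 4.45% with luteolin and 7.73% to 11.9% with vehicle. Cdh2 stayed between 0.219% and 1.17% in all 6 libraries. The ratio of Cdh1 to Cdh3 was 26.5 ± 5.54 with luteolin and 9.04 ± 2.40 with vehicle (SD, n = 3 each), given as a description since it joins chosen genes.

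Vimentin, the intermediate filament protein of mesenchymal cells and leukocytes, showed the largest difference of the 10. Vim (gene ID 22352) had 68.7, 72.7 and 58.7 CPM in luteolin 1, 2 and 3, against 447, 558 and 463 CPM in vehicle 1, 2 and 3. The groups were far apart, with little spread inside either. The log2 fold change was -2.87 (SE 0.120, edgeR adjusted p = 2.79e-05), and 3.59% of all tested genes had a lower one. In TPM the order of Vim and Cdh1 was inverted between the groups: the ratio of Vim to Cdh1 was 0.364, 0.395 and 0.330 in luteolin 1, 2 and 3, against 3.14, 4.41 and 3.17 in vehicle 1, 2 and 3. Per 1000 TPM of summed keratocyte markers Vim had 26.0 to 42.9 TPM with luteolin and 101 to 277 TPM with vehicle. Set against 1000 TPM of summed macrophage and dendritic cell markers it had 455 to 561 TPM with luteolin and 1032 to 1321 TPM with vehicle. Itgam, the 1 marker of that list that was higher, gave 51.8% to 57.9% of its sum with luteolin. Without Itgam, an alternative chosen after seeing the data, the groups overlapped, with 1033 to 1166 TPM of Vim with luteolin and 1131 to 1573 TPM with vehicle. The part of these cell types in the difference of Vim was not tested.

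**Figure D2:**
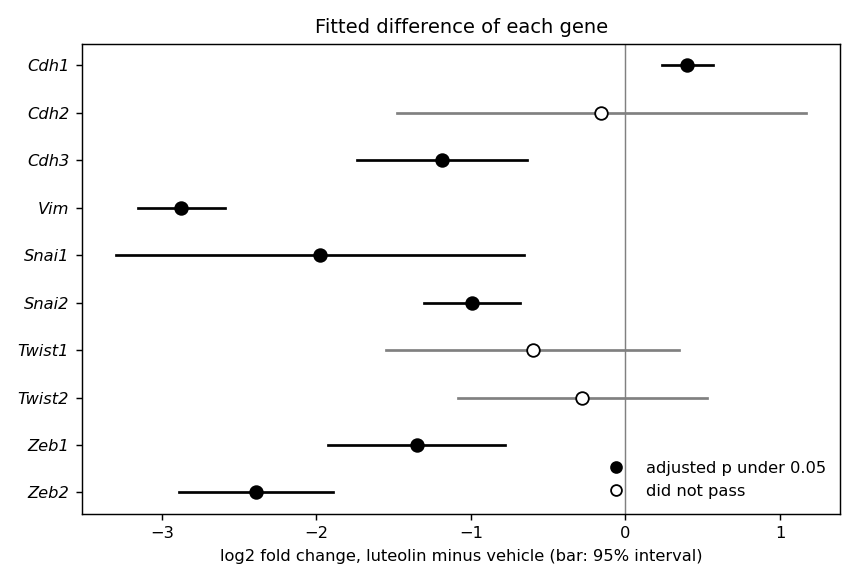
Log2 fold change of each gene, luteolin minus vehicle, with its 95% interval from the edgeR fit (SE times the t quantile). Filled points passed at an adjusted p under 0.05 and lie between -2.87 for Vim and 0.40 for Cdh1, and the open points of Cdh2, Twist1 and Twist2 have intervals that include 0.

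Both Snail family genes were lower. Snai1 (gene ID 20613), the Snail factor, was scarce, with 9, 26 and 4 counts in luteolin 1, 2 and 3, against 48, 75 and 47 counts in vehicle 1, 2 and 3. All luteolin libraries were below all vehicle libraries, but luteolin 2 stood well above the other luteolin libraries. The means were 0.842 ± 0.751 CPM with luteolin and 3.33 ± 0.917 CPM with vehicle (SD, n = 3 each). The log2 fold change was -1.98 (SE 0.563, edgeR adjusted p = 0.0189), with a wide 95% interval of -3.29 to -0.66. This call ended without luteolin 1 (log2 fold change -1.78, edgeR adjusted p = 0.0710), and without luteolin 2 the change was -2.98. Over all edgeR, DESeq2 and limma alternatives the adjusted p was 0.00361 to 0.0710.

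The sequence upstream of Snai1 is shown because Snail and Zeb factors recognise the E-box CACCTG, which reads CAGGTG on the other strand, and Snail is known to act on its own promoter. These are the 250 bases before the RefSeq start of Snai1, in GRCm38.p6 at chr2:167537945-167538194 on the plus strand, upstream of the gene, with the E-box in capitals.
Snai1: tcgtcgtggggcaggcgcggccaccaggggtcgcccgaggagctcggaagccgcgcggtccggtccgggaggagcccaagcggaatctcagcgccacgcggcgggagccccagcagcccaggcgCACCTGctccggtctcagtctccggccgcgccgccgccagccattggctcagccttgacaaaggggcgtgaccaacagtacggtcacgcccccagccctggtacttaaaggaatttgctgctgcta
The E-box lies 126 to 121 bases before the start. RefSeq windows were at hand for 5 of the 10 genes, Vim, Snai1, Twist1, Twist2 and Zeb2, in 8 windows. CACCTG or CAGGTG, searched on both strands, was in the Snai1 window alone, and so was the general E-box CANNTG, of which CACCTG is a case. The Vim window overlaps an exon with 5′ untranslated sequence in the GENCODE annotation, so it is not plain upstream sequence. Of 32851 windows of the same length 17.2% hold CACCTG or CAGGTG and 66.2% hold CANNTG. A match describes the letters of a window and is not evidence of binding.

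Snai2, or Slug, had the highest mean TPM of the 6 transcription factors in both groups, though its libraries overlapped those of Twist1. Snai2 (gene ID 20583) had 20.6, 26.6 and 25.9 CPM in luteolin 1, 2 and 3, against 54.8, 41.9 and 48.6 CPM in vehicle 1, 2 and 3. The groups were clearly apart, and the difference was 1.99-fold (log2 fold change -0.99, SE 0.132, edgeR adjusted p = 0.000731). Slug is known from basal cells of stratified epithelia as well as from mesenchyme. In vehicle libraries, Snai2 and Cdh3 had the same order, highest in vehicle 1 and lowest in vehicle 2, whereas Vim, Snai1, Zeb1 and Zeb2 were highest in vehicle 2. In luteolin libraries the orders of Snai2 and Cdh3 differed, with Snai2 highest in luteolin 2 and Cdh3 highest in luteolin 3. Per 1000 TPM of keratocyte markers Snai2 overlapped between groups, with 6.90 to 16.8 TPM with luteolin and 6.72 to 25.7 TPM with vehicle. Per 1000 TPM of epithelial markers it did not, with 0.253 to 0.333 TPM with luteolin and 0.781 to 1.2 TPM with vehicle.

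The Zeb genes, whose products are large repressors with zinc fingers at both ends, were lower too. Zeb2 (gene ID 24136) had 5.48, 5.59 and 3.73 CPM in luteolin 1, 2 and 3, against 26.7, 30.7 and 20.3 CPM in vehicle 1, 2 and 3. The groups were far apart, with the third library the lowest in each. The log2 fold change was -2.39 (SE 0.211, edgeR adjusted p = 0.000149), and it was -1.41 with limma-trend on log2(FPKM + 1), a scale that shrinks changes of low genes. Zeb1 (gene ID 21417) had 11.6, 8.64 and 8.56 CPM in luteolin 1, 2 and 3, against 22.3, 33.3 and 17.9 CPM in vehicle 1, 2 and 3. Its groups did not overlap either, with vehicle 2 the highest, and the log2 fold change was -1.35 (SE 0.244, edgeR adjusted p = 0.00277). Zeb2 is also expressed in macrophages and dendritic cells, and per 1000 TPM of their summed markers it had 5.04 to 7.89 TPM with luteolin and 9.97 to 12.8 TPM with vehicle. That separation rested on Itgam: without it the groups overlapped, with 16.4, 14.2 and 11.98 TPM in luteolin 1, 2 and 3, against 14.5, 10.9 and 12.3 TPM in vehicle 1, 2 and 3. Per 1000 TPM of keratocyte markers Zeb1 had 0.898 to 1.44 TPM with luteolin and 1.67 to 2.85 TPM with vehicle. That sum includes Aldh1a1, the 1 keratocyte marker that was higher, at 199 to 263 TPM with luteolin and 20.2 to 74.7 TPM with vehicle. The separation of Zeb1 may rest on Aldh1a1, and a sum without it was not tested. The part of these cells in either difference was not tested. The ratio of Zeb1 to Zeb2 in TPM was 2.89 ± 0.498 with luteolin and 1.44 ± 0.234 with vehicle (SD, n = 3 each), a description only.

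Zeb1 counts carried decimals in 5 of the 6 libraries, which means that some reads were shared out with similar sequences, and its values are uncertain. The GENCODE annotation of GRCm38 places genes of the opposite strand over Zeb1, Zeb2, Cdh2 and Twist2, among them Zeb2os over Zeb2, and 1 gene of the same strand over each of Twist2, Zeb1 and Zeb2. The sources used here do not say whether counting used strand, and reads of such partners may not be told apart.

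Twist transcripts varied between libraries of a group and did not differ detectably between groups. Twist1 (gene ID 22160), a factor of mesenchymal lineages, had 19.9, 18.1 and 10.0 CPM in luteolin 1, 2 and 3, against 18.4, 39.7 and 14.7 CPM in vehicle 1, 2 and 3. A single library, vehicle 2, stood high, and the other vehicle values lay among the luteolin values. The log2 fold change was -0.60 (95% interval -1.55 to 0.35, edgeR adjusted p = 0.234), and without vehicle 2 it was -0.05. Twist2 (gene ID 13345), the closely related Dermo1, had 5.93, 4.55 and 2.64 CPM in luteolin 1, 2 and 3, against 5.43, 6.85 and 3.63 CPM in vehicle 1, 2 and 3. Again vehicle 2 was the highest and the third library the lowest of each group (log2 fold change -0.28, 95% interval -1.08 to 0.52, edgeR adjusted p = 0.509). Leaving out 1 library moved the value of Twist2 between -0.57 (luteolin 1 left out) and -0.02 (luteolin 3 left out).

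Twist1 and the keratocyte markers had nearly the same order across the 6 libraries, in which luteolin 2 and vehicle 1 alone traded places. The summed keratocyte markers had 2571, 2495 and 1304 TPM in luteolin 1, 2 and 3, against 2463, 5335 and 1580 TPM in vehicle 1, 2 and 3. Twist1 had 22.4, 20.0 and 11.03 TPM in the luteolin libraries, against 20.8, 44.4 and 16.1 TPM in the vehicle libraries. Per 1000 TPM of keratocyte markers Twist1 had 8.72, 8.02 and 8.46 TPM with luteolin, against 8.45, 8.31 and 10.2 TPM with vehicle. On this scale vehicle 2 no longer stood apart. Twist2 had 2.60 to 3.35 TPM on the same scale with luteolin and 1.85 to 3.24 TPM with vehicle. The keratocyte markers did not move as a block: of 9, 5 were lower, 1 was higher and 3 did not pass, and the proteoglycan gene Dcn gave 48.3% to 59.2% of the sum. Skeletal muscle markers also varied between libraries, with 5.28, 4.91 and 78.9 TPM in luteolin 1, 2 and 3, against 93.9, 179 and 3.59 TPM in vehicle 1, 2 and 3. That order matched neither the groups nor Twist1, and its part in these values was not tested.

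**Figure D3:**
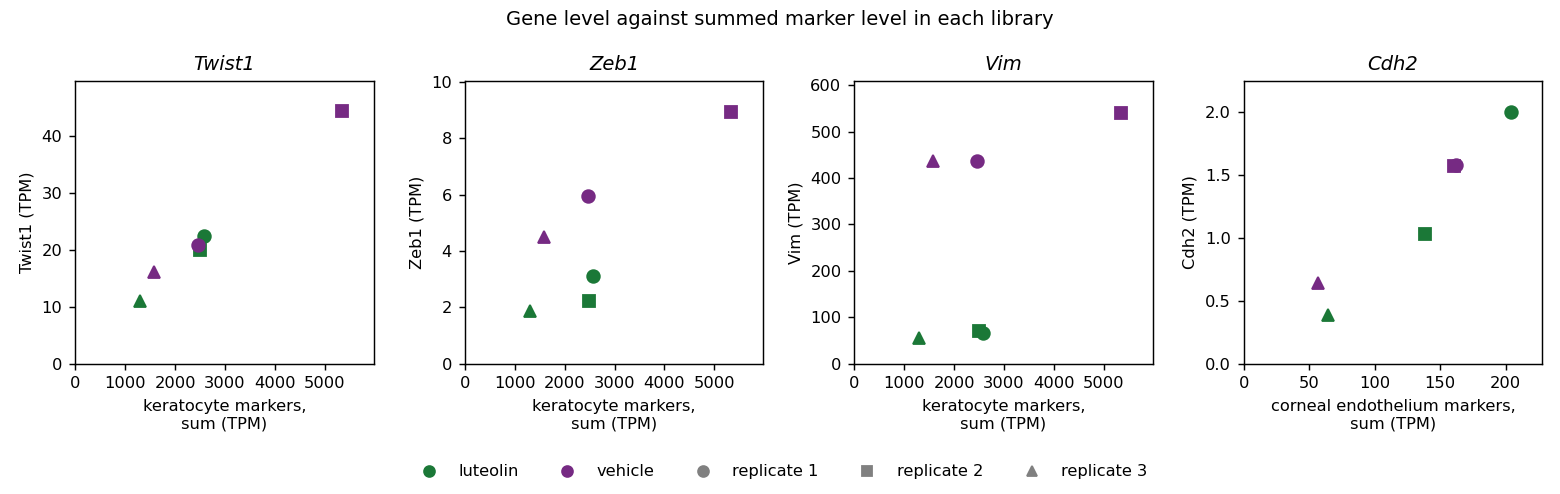
TPM of Twist1, Zeb1 and Vim (vertical axes) against summed keratocyte markers, and of Cdh2 against summed corneal endothelium markers, 1 point per library, green for luteolin and purple for vehicle. Luteolin and vehicle points of Twist1 and of Cdh2 are intermingled, whereas those of Vim are apart, at 56.0 to 69.7 TPM with luteolin and 437 to 540 TPM with vehicle.

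The order of the 10 genes by TPM differed between groups at its top. With luteolin it ran Cdh1 (177 TPM), Vim (64.2), Snai2 (20.7), Twist1 (17.8), Cdh3 (6.83), Twist2 (6.27), Zeb1 (2.41), Cdh2 (1.14), Snai1 (0.940) and Zeb2 (0.840 TPM). With vehicle it ran Vim (471 TPM), Cdh1 (133), Snai2 (41.3), Twist1 (27.1), Cdh3 (15.5), Twist2 (7.65), Zeb1 (6.46), Zeb2 (4.403), Snai1 (3.74) and Cdh2 (1.26 TPM). With luteolin, neighbours in that order overlapped between Snai2 and Twist1, between Cdh3 and Twist2, and from Zeb1 down to Zeb2. With vehicle, neighbours overlapped from Snai2 down to Cdh3 and from Twist2 down to Snai1.

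**Figure D4:**
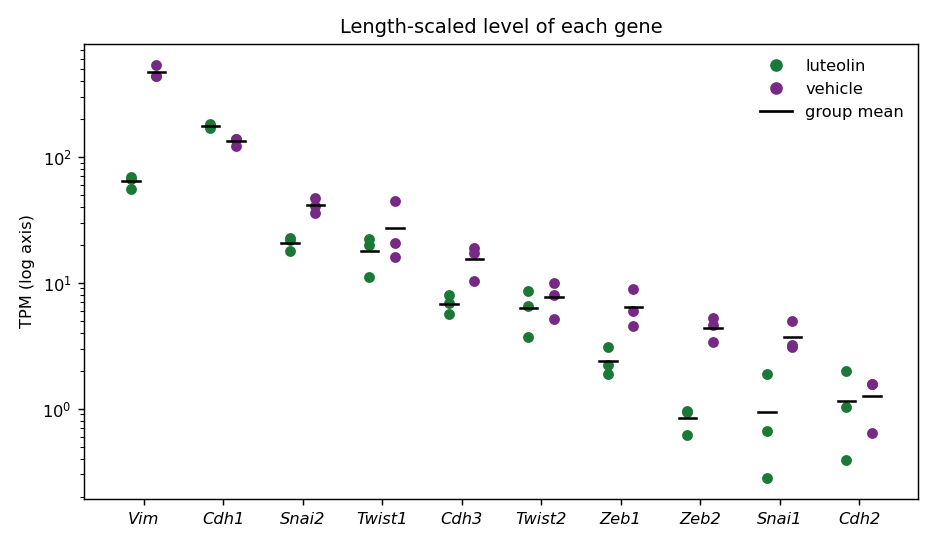
TPM of each gene (log axis) in the 3 luteolin libraries, left of each pair, and the 3 vehicle libraries, with lines at the group means, ordered by the vehicle mean. Vim is the most abundant with vehicle (471 TPM) and Cdh1 with luteolin (177 TPM).

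Genes nearest in pattern were sought by the Euclidean distance of log2 CPM, centred on each gene's mean over the 6 libraries. Among the nearest to Cdh1 were Lig3, a DNA ligase gene, with a distance of 0.0459 and Ovca2 with 0.0815. Lig3 had 72.3 ± 1.61 CPM with luteolin and 54.7 ± 4.73 CPM with vehicle (SD, n = 3 each). Nearest to Vim were Itga5, the fibronectin receptor subunit, with 0.166, the properdin gene Cfp of phagocytes with 0.299 and Cyba, a subunit of the phagocyte oxidase, with 0.320. Itga5 had 3.899 ± 0.493 CPM with luteolin and 26.9 ± 3.92 CPM with vehicle (SD, n = 3 each).

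Partners of the cadherins in the adherens junction were mostly higher. Of 11 genes of catenins, nectins and their binding proteins 8 rose, 2 fell and 1 did not pass (median log2 fold change 0.45, against -0.02 for all tested genes). The share of all tested genes that passed was 58.9%, with 28.5% higher and 30.4% lower. With library sizes only, 6 of the 11 rose and 3 fell. Nectin4, an epithelial adhesion receptor, had 399 ± 24.0 CPM with luteolin and 191 ± 10.6 CPM with vehicle (SD, n = 3 each), which is 1.06 on the log2 scale with an SE of 0.0719 (edgeR adjusted p = 7.09e-05). Afdn, which links nectins to actin, rose by 0.67 on the log2 scale, Ctnnd1 (p120-catenin, which stabilises cadherins at the membrane) by 0.53, Ctnna1 (alpha-catenin, the link to actin) by 0.46 and Jup (plakoglobin) by 0.45. Ctnnb1, the beta-catenin gene, had 736 ± 10.2 CPM with luteolin and 774 ± 1.81 CPM with vehicle (SD, n = 3 each) and did not pass (log2 fold change -0.07), but it passed with library sizes only (-0.19). The 2 that fell with TMM factors were Nectin3 (log2 fold change -2.18) and the vinculin gene Vcl (-0.24). The Vcl call ended without luteolin 2 or luteolin 3 (edgeR adjusted p 0.0523 and 0.0537). Over all edgeR, DESeq2 and limma alternatives its adjusted p was 0.00119 to 0.0537.

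Of 20 other cadherins 15 had a row and 7 were tested: 3 were lower, 1 was higher and 3 did not pass. That is near the share of all tested genes, of which 58.9% passed, 28.5% higher and 30.4% lower. The vascular cadherin Cdh5 fell to 2.65 ± 0.753 CPM with luteolin, against 24.0 ± 6.04 CPM with vehicle (SD, n = 3 each), as the vessel markers above were lower, and Cdh11, a cadherin of mesenchymal cells, had a log2 fold change of -0.77. Cdh19, a Schwann lineage cadherin, had -1.05, a call that ended under 10 of 16 alternatives (adjusted p of edgeR, DESeq2 and limma fits 0.00755 to 0.140). Cdh4, R-cadherin, had 9.49 ± 1.12 CPM with luteolin and 6.21 ± 1.49 CPM with vehicle (SD, n = 3 each). Its call ended under 8 of 16, among them other scalings (adjusted p of the same fits 0.0125 to 0.107). Of 6 genes of proteases that cut cadherins, or of their subunits, 4 rose, 1 fell and 1 did not pass. Here too the share of all tested genes was 58.9% passing, 28.5% higher and 30.4% lower. Adam15 rose by 0.74 on the log2 scale and Adam17 by 0.33, while Adam10, a sheddase known to act on E-cadherin, had 128 ± 4.59 CPM with luteolin and 154 ± 3.86 CPM with vehicle (SD, n = 3 each), a log2 fold change of -0.27.

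Most regulators known to keep cells epithelial were higher, as the corneal epithelium markers were (7 of 7, median log2 fold change 0.69), and the part of epithelial content was not tested. Of 10 such genes 8 rose and 2 did not pass (median log2 fold change 0.65), where 58.9% of all tested genes passed and 28.5% rose. Grhl1, a grainyhead factor of epithelia, had 224 ± 13.6 CPM with luteolin and 102 ± 3.99 CPM with vehicle (SD, n = 3 each), which is 1.14 on the log2 scale with an SE of 0.0664 (edgeR adjusted p = 4.76e-05). Ovol1, a zinc finger repressor opposed to EMT, rose by 1.21 on the log2 scale, the epithelial splicing factors Esrp1 and Esrp2 by 0.64 and 0.71, Elf3 by 0.67, Grhl3 by 0.65 and Grhl2, an activator of Cdh1, by 0.63. Esrp2 counts carried decimals in all 6 libraries and are uncertain. Ovol2 (0.20) and the adhesion molecule gene Epcam (0.12) did not pass.

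Other transcription factors linked to EMT were lower or did not pass. Of 9 tested 6 fell and 3 did not pass (median log2 fold change -1.23), where 58.9% of all tested genes passed and 30.4% fell. Snai3, the third Snail gene, had 4, 0 and 1 counts in luteolin 1, 2 and 3, against 57, 43 and 51 counts in vehicle 1, 2 and 3, so the luteolin level was close to the limit of detection (edgeR adjusted p = 0.000574). Prrx1, a factor of mesenchyme, had 29.1 ± 11.04 CPM with luteolin and 84.1 ± 24.4 CPM with vehicle (SD, n = 3 each), and Tcf4 had a log2 fold change of -1.23. Tcf3 (0.07), Tcf12 (-0.0045) and Sox9 (-0.38) did not pass.

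Ligands of transforming growth factor beta (TGF-beta), a known inducer of Snail and Zeb genes, were lower. Of 10 genes of this pathway 4 fell, 2 passed upward and 4 did not pass (median log2 fold change -0.46). Among all tested genes 58.9% passed, 28.5% higher and 30.4% lower, so the number passing here was near that share. The 4 that fell were the ligands Tgfb1 (log2 fold change -1.22), Tgfb2 (-1.86) and Tgfb3 (-2.18) and the receptor gene Tgfbr2 (-1.55). Tgfbr2 had 52.6 ± 5.19 CPM with luteolin and 154 ± 26.9 CPM with vehicle (SD, n = 3 each, edgeR adjusted p = 0.000147). The 2 upward calls, Smad2 (0.20) and Smad4 (0.17), ended with library sizes only (0.08 and 0.06) and without several single libraries.

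Mesenchymal matrix and contractile genes had the lowest median of the 9 related lists. Of 12 tested 10 fell and 2 did not pass (median log2 fold change -2.34), where 58.9% of all tested genes passed and 30.4% fell. The leukocyte and myofibroblast markers above were also lower, and their part was not tested. S100a4, a calcium-binding protein of fibroblasts and macrophages, had 4.52 ± 1.06 CPM with luteolin and 46.9 ± 7.18 CPM with vehicle (SD, n = 3 each), which is -3.37 on the log2 scale with an SE of 0.183 (edgeR adjusted p = 4.14e-05). Col3a1 was lower by the largest amount (-3.68), Lox, a collagen cross-linking enzyme, had -3.18, Itga5 -2.78, Fap -2.65, Acta2, smooth muscle actin, -2.41, Mmp2 -2.27 and Tagln -1.78, whose counts carried decimals in all 6 libraries and are uncertain. Fn1 (-0.26) and Col1a1 (-0.88) did not pass, and both passed without vehicle 3 (-0.37 and -1.08) and under other alternatives.

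Cofactors and turnover enzymes of Snail and Zeb differed little. Of 10 genes 4 rose, 1 fell and 5 did not pass (median log2 fold change 0.19), and 2 rose and 2 fell with library sizes only, 2 rose without luteolin 2 and 2 without luteolin 3. Gsk3b, the kinase that marks Snail protein for destruction, rose by 0.41 on the log2 scale and Btrc, the ubiquitin ligase subunit that recognises it, by 0.59, with 28.4 ± 2.57 CPM with luteolin and 18.8 ± 2.72 CPM with vehicle (SD, n = 3 each). Hdac2 fell by 0.48, and Ctbp2, a corepressor of Zeb factors, had 0.21, a call that ended under 7 of 16 alternatives. Over these edgeR, DESeq2 and limma fits its adjusted p was 0.0160 to 0.333. Other intermediate filament genes did not all move with Vim: of 7 tested 3 fell, 1 rose and 3 did not pass (median log2 fold change -0.82). The numbers passing in these 2 lists were near the share of all tested genes, of which 58.9% passed. Krt18, a keratin of simple epithelia, fell by 2.15 on the log2 scale and Nes, nestin, by 0.87. Krt8, the other keratin of this list, did not pass (log2 fold change 0.66). Synm had -0.82, and leaving out any 1 of luteolin 1, luteolin 2, luteolin 3, vehicle 1 or vehicle 2 ended its call. Over all edgeR, DESeq2 and limma alternatives its adjusted p was 0.00385 to 0.0684. Gfap was the 1 that rose, with 26, 20 and 25 counts in luteolin 1, 2 and 3, against 3, 0 and 8 counts in vehicle 1, 2 and 3.

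**Figure D5:**
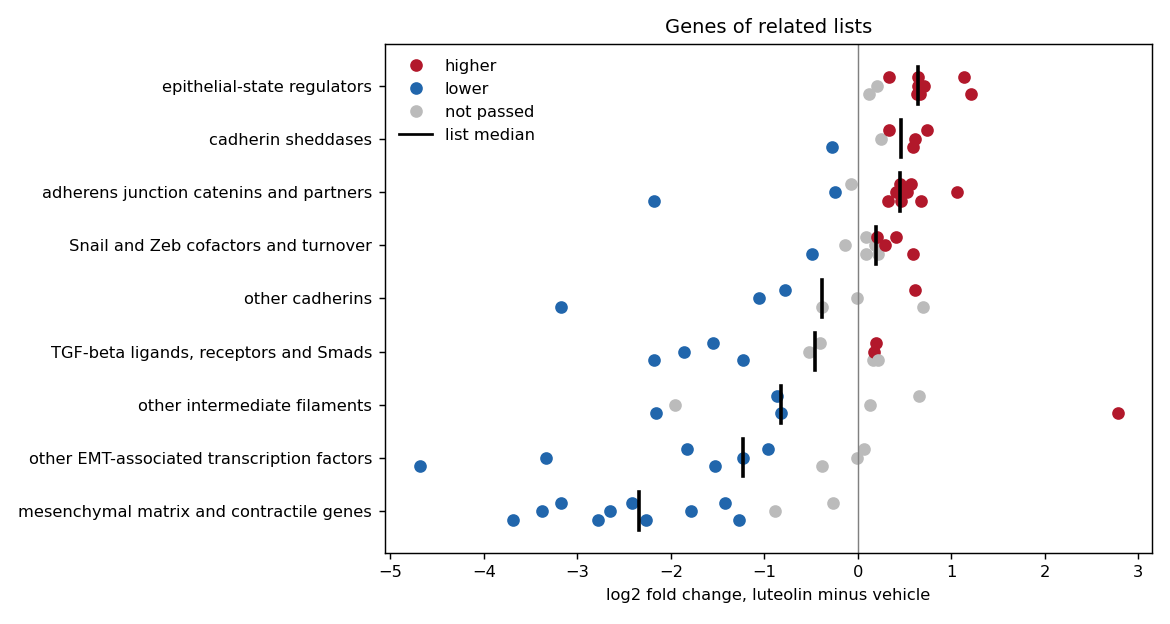
Log2 fold change, luteolin minus vehicle, of every tested gene in 9 related lists, 1 point per gene, coloured by call, with black bars at list medians. Medians run from 0.65 for epithelial-state regulators to -2.34 for mesenchymal matrix and contractile genes, against -0.02 for all tested genes.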

How the data were processed

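RNA of whole corneas, 6 libraries (3 luteolin, 3 vehicle, grouped by their titles), was extracted with Trizol and made into TruSeq libraries, per the labels' protocols. Named in the submitters' processing notes, with no role or annotation, are RSEM 1.2.12, Bowtie2 2.2.5 and the build mm9. The authors deposited estimated counts, headed as read counts, with decimals in 10.3% to 10.8% of values. The deposited normalized read count is a signal, counts divided by 1 factor per library, and was used only to check those factors. FPKM and TPM were both deposited by the authors and are scaled by gene length and depth. The 8 columns of group means were not used.

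The rounded counts went into edgeR 4.0.16 (R 4.3.3): filterByExpr (minimum count 10, minimum total 15) left 13838 genes, with TMM factors, the quasi-likelihood test without a replicate block and Benjamini-Hochberg adjustment over all tested genes. CPM are scaled by TMM factors. The SE of a log2 fold change is its size over the root of F. Code was tested on simulated data. Alternatives were DESeq2 1.42.0, 3 other scalings, 2 other filters, robust dispersion, the replicate block, limma 3.58.1 on log2(FPKM + 1) and log2(FPKM + 0.1), and leaving out each library.

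The 10 genes and all lists were chosen with earlier results of these data known. Named from each list were the tested genes with the smallest p, 4 where more than 3 passed and 2 otherwise, and, for Cdh1 and Vim, the 3 nearest genes with a mean of at least 5 CPM, model names passed over. Other named list genes, among them Jup, Ctnnb1, Vcl, Nectin3, Ovol1, Ovol2, Elf3, Grhl3, Epcam, Tcf3, Tcf12, Sox9, Smad2, Smad4, Fn1, Col1a1, Fap, Mmp2, Tagln and Lox, were chosen after their values were seen. A few genes that the rule selects are not reported here.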

Additional observations from a re-analysis of the deposited data

How the results depend on the processing

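Over 16 alternatives 1 gene of the 10 was called higher in each and 5 or 6 were called lower. Calls and directions of 8 of the 10 genes were kept under all 16. The exceptions were Snai1, given above, and Cdh2, which did not pass anywhere and changed sign without luteolin 3 (0.25), vehicle 1 (0.02) or vehicle 2 (0.03), within a range of -0.84 to 0.25 when 1 library was left out. All tested genes called higher numbered 2787 to 4087 and lower 3581 to 5247. Of 63 other genes examined 49 were the same throughout and 3 changed sign without passing: Epcam (-0.0011 with limma-trend at either pseudocount), Tcf3 (-0.0253 with upper quartile factors, -0.0451 with library sizes only, -0.0459 and -0.0477 with limma-trend at pseudocounts 1 and 0.1, and -0.0167 without vehicle 2, the range over left-out libraries being -0.0167 to 0.1281) and Tcf12 (0.0273 without luteolin 3 and 0.0816 without vehicle 2, the range being -0.0733 to 0.0816). Without luteolin 2 or luteolin 3, only 1 of the adherens junction genes, Nectin3, was called lower, because Vcl no longer passed. Deviations of same-numbered libraries had correlations over genes of -0.150, 0.0267 and 0.0121, and those of differently numbered libraries -0.141 to 0.180. With 3 libraries per group these values cannot show whether the numbers pair libraries, and no label says that they do. With the replicate number as a block 3790 genes were higher and 4144 lower, with 1 and 6 of the 10. Depth limits what can be seen of Snai1, Snai3 and Cdh2, which had few counts.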
